A study of Homo sapiens with 16 samples.

Results

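The p53 pathway and growth arrest genes followed here are 9 genes taken by symbol: CDKN1A, MDM2, GADD45A, GADD45B, BAX, SESN1, BTG2, FAS and PPM1D. Their members on the array were all probe sets annotated with 1 of these symbols alone. That gave 19 probe sets for 8 genes, out of 22215 probe sets outside the controls and 11963 genes in all. BTG2 matched no probe set by this rule and was not analysed here. Of the 19 probe sets, 14 had a mean signal at or above 208.5, the level set for testing, and all 8 genes had at least 1 such probe set.

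The 16 arrays held RNA of HepG2, a human hepatoma line known to keep a functional p53, and all cultures had received a recombinant adenovirus. The groups, of 4 arrays each, were cells given the GPI-PLD virus and kept for 12 h, the same virus for 6 h, the LacZ virus for 12 h, and the LacZ virus for 6 h. GPI-PLD is glycosylphosphatidylinositol-specific phospholipase D, an enzyme that releases proteins from their GPI anchors, and LacZ encodes beta-galactosidase, the control insert. Cells without virus and cells at 0 h are in no group used here, so every difference is between 2 times after a virus or between 2 viruses, and HepG2 as a single line limits the cells the values speak for. Each array took 10 µg of total RNA. The labels name neither batches nor separate cultures within a group, and the p-values therefore cover the spread between these arrays only, which may be technical.

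The protein p53 is a transcription factor that is stabilised by DNA damage and other stresses and switches on genes that halt the cell cycle, repair DNA or start cell death. CDKN1A encodes p21, which inhibits cyclin-dependent kinases. GADD45A and GADD45B encode small proteins that bind PCNA, p21 and the kinase MAP3K4, and GADD45B is known mainly as a target of NF-kB and TGF-beta signalling. MDM2 and PPM1D close feedback loops that lower p53 activity, SESN1 restrains mTORC1, and BAX and FAS act in cell death. These genes also respond to signals that do not pass through p53. In liver cells several of them are known to respond to nutrient shortage and toxic compounds.

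As MAS5 signals carry no absolute scale, levels are compared here only within a probe set. Every array had been scaled to 1 common mean, and array medians ran from 304.5 to 377.6. All 12 hepatocyte markers were above the testing level, with summed signals of 504364.8 to 564547.8 in GPI-PLD 12 h arrays, 488907.5 to 541039.6 in GPI-PLD 6 h arrays, 494801.5 to 535954.9 in LacZ 12 h arrays and 467339.7 to 516231.5 in LacZ 6 h arrays. The 10 fibroblast markers summed to 1588.0 to 3078.2 in any array, and the 9 leukocyte markers with a probe set to 1611.0 to 2806.0. No marker of these lists passed in limma in a comparison of times or viruses, and at most 2 of a list stood at an unadjusted p under 0.05. GPI-PLD 12 h arrays correlated less with each other (mean r 0.938 to 0.939) than the arrays of the other groups did (0.948 to 0.958). That r was alike in all 4 GPI-PLD 12 h arrays and does not set replicates 2 and 4 apart. Replicate 2 had the lowest weight (0.639) when limma weighted the arrays. Replicate 4 (0.769) had more than LacZ 6 h replicates 3 (0.684) and 4 (0.746). Leaving out the pair is a check, and no fault of these arrays was shown. Results that rest on GPI-PLD 12 h arrays are also given without replicates 2 and 4 where a call was lost, and for some other genes.

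Promoter windows from RefSeq (GRCh38.p14) were searched over the 250 bases before each transcript start, in 15 windows of 8 of the 9 genes. GADD45A was the gene not searched. The p53 half-site, the 10-base motif of which p53 response elements hold a pair, was found on either strand in 2 windows, 1 of SESN1 and 1 of FAS, and 5.57% of 35116 windows of all genes held one. The GADD45B window held TATAAA, found in 10.7% of all windows, and 2 copies of CCAAT, found in 32.0%. These 3 windows are shown as the last 150 bases before the start, 5′ to 3′ on the gene's strand, because they hold the p53 half-sites and the TATA box found among the members. Capitals mark the half-site in SESN1 and FAS, CCAAT in SESN1 and GADD45B, and TATAAA in GADD45B.
SESN1, chr6:109008989-109009138, minus strand: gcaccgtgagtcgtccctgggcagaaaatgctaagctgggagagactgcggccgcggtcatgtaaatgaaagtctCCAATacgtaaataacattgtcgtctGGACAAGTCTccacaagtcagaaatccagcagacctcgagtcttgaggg
FAS, chr10:88991281-88991430, plus strand: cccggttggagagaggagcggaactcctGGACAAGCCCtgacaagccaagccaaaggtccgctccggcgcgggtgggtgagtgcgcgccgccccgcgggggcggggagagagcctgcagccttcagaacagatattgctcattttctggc
GADD45B, chr19:2475977-2476126, plus strand: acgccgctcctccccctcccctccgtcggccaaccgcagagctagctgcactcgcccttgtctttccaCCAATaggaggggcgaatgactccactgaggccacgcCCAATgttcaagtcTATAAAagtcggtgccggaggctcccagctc
A match describes the letters of a window and shows no binding. The half-site search took exact matches to RRRCWWGYYY only (R is A or G, W is A or T, Y is C or T). A window without a match can therefore still hold a half-site with a mismatch, and it says nothing about sites elsewhere in the gene. SESN1 and FAS each have 3 listed starts, and the window shown is that of 1 of them.

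GADD45A, a stress sensor that binds PCNA and p21 and slows entry into mitosis, was the only member that passed the test. It rose with time after either virus. Its signals were 5960.5, 5603.2, 3738.7 and 4827.7 in GPI-PLD 12 h arrays, against 2117.7, 3284.9, 2590.7 and 1846.5 in GPI-PLD 6 h arrays. In LacZ cells they were 4722.4, 5075.1, 4612.1 and 4042.2 at 12 h, against 2396.3, 2078.9, 2474.0 and 3650.8 at 6 h. In each virus the lowest 12 h array stood above the highest 6 h array, so the times did not overlap. In GPI-PLD cells the mean was 5033 ± 984 at 12 h and 2460 ± 630 at 6 h (SD, n = 4 each), a log2 difference of 1.03 ± 0.17 (SE), or 2.04-fold on the signal + 63 scale with a 95% interval of 1.59 to 2.61. In LacZ cells it was 4613 ± 429 at 12 h and 2650 ± 689 at 6 h, a log2 difference of 0.81 ± 0.17 and 1.76-fold.

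The test was limma across 8109 genes with Benjamini-Hochberg adjustment, and it gave GADD45A an adjusted p of 0.000392 in GPI-PLD cells and 0.00469 in LacZ cells. GADD45A passed under each of 28 alternatives in both viruses, with adjusted p-values of 7.53e-05 to 0.00784 in GPI-PLD cells and 0.000539 to 0.0283 in LacZ cells. Without GPI-PLD 12 h replicates 2 and 4 the GPI-PLD difference was 0.96 ± 0.21 (adjusted p = 0.00784). That made 1 of 8 tested members called in GPI-PLD cells, against 9.64% of all genes tested, and 1 of 8 in LacZ cells, against 6.89%. In GPI-PLD cells 4.59% of all genes were called upward and 5.06% downward, and in LacZ cells 3.64% and 3.26%. At an unadjusted p under 0.05 stood 2 of 8 members in each virus, GADD45A with GADD45B in GPI-PLD cells and with CDKN1A in LacZ cells, beside 22.8% of all genes in GPI-PLD cells and 20.2% in LacZ cells. In RNA of whole cultures, fewer cells of a kind and less RNA per cell cannot be told apart.

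**Figure D1:**
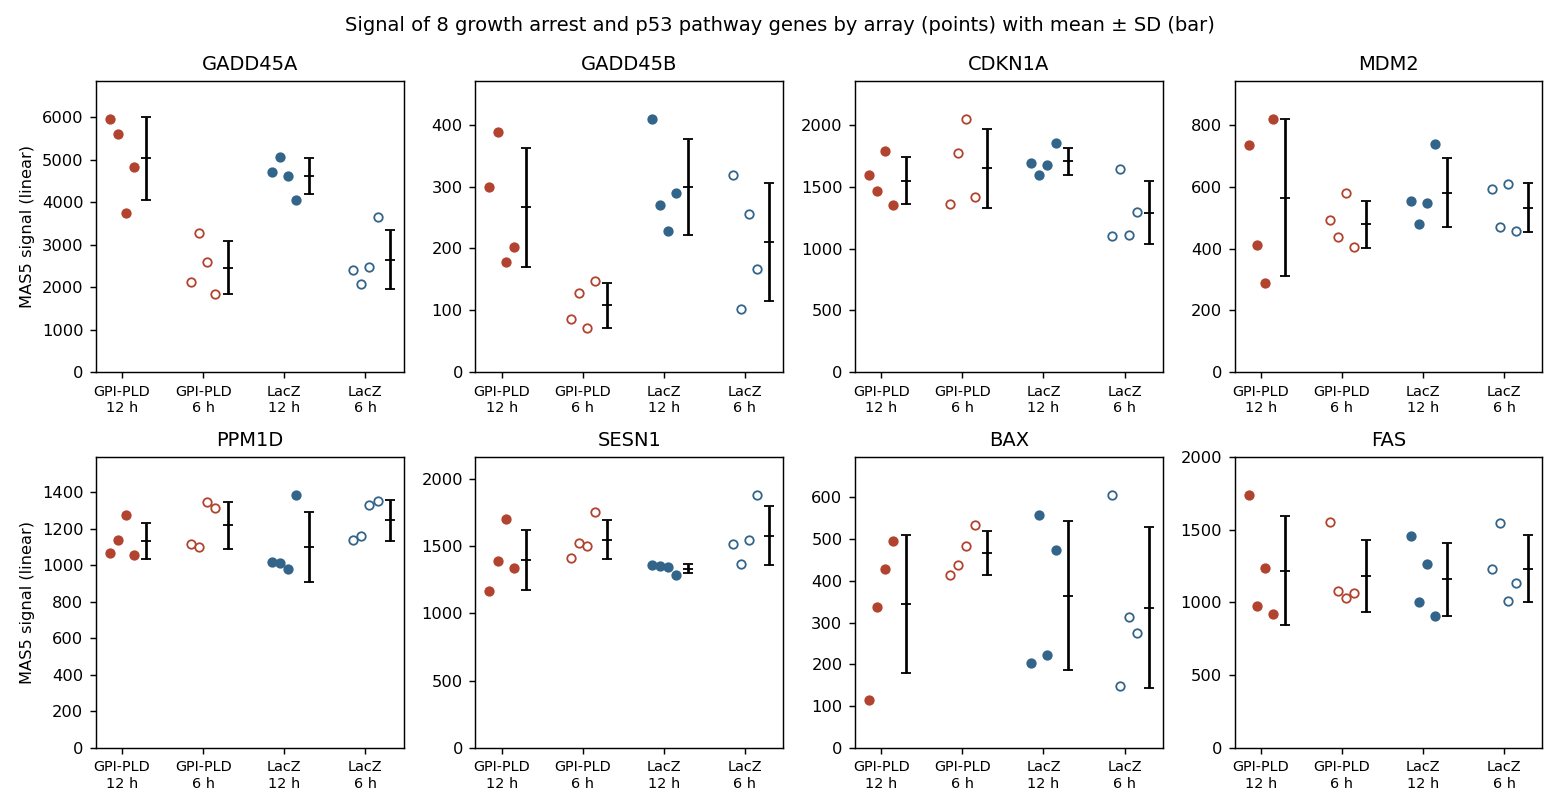
MAS5 signal (linear, vertical axis from 0) of the brightest probe set of 8 genes in each of 16 arrays. Points are arrays, filled for 12 h and open for 6 h, and bars are the mean ± SD of 4 arrays. GADD45A arrays at 12 h sit between 3738.7 and 5960.5, all above the 6 h arrays, which reach 3650.8.

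GADD45B, the family member that links TGF-beta and NF-kB signals to the p38 and JNK kinases, read higher at 12 h in GPI-PLD cells without passing the test. The brightest GADD45B probe set gave 299.1, 387.9, 177.6 and 201.4 in GPI-PLD 12 h arrays, against 85.3, 128.5, 70.6 and 147.0 in GPI-PLD 6 h arrays. Those groups did not overlap. In LacZ cells it gave 409.2, 269.9, 228.6 and 289.5 at 12 h, against 318.0, 101.3, 254.9 and 166.4 at 6 h, and the groups overlapped. The log2 difference was 0.93 ± 0.36 in GPI-PLD cells (95% interval 0.18 to 1.67, limma adjusted p = 0.113) and 0.46 ± 0.36 in LacZ cells (adjusted p = 0.539). Without GPI-PLD 12 h replicates 2 and 4 the GPI-PLD difference of GADD45B was 0.81 ± 0.45 (adjusted p = 0.31).

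All 4 GADD45B probe sets gave positive log2 differences between 12 h and 6 h, from 0.64 to 1.44 in GPI-PLD cells and from 0.08 to 0.81 in LacZ cells. Only 1 of the 4, the brightest, had a mean signal at or above the level set for testing. Even that set averaged 107.85 in GPI-PLD 6 h arrays, below that level. The shared sign therefore rests mostly on dim sets. None of the 4 passed when adjusted over all probe sets, and the lowest adjusted p was 0.0627, for a dimmer set in GPI-PLD cells. Of the 19 probe sets of all members 1 passed in each virus, that of GADD45A, beside 3.8% of all probe sets in GPI-PLD cells and 2.73% in LacZ cells. The mean of the 4 probe sets differed by 1.09 ± 0.23 in GPI-PLD cells (limma adjusted p = 0.00439) and by 0.52 ± 0.23 in LacZ cells (adjusted p = 0.214). That mean includes the sets below the testing level. With the variance estimated without trend and robust, the brightest probe set also passed in GPI-PLD cells (adjusted p = 0.0433). GADD45B therefore passed in 2 of 27 alternatives in GPI-PLD cells.

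Non-overlapping times were found in 2 of 8 members in each virus, GADD45A and GADD45B in GPI-PLD cells and GADD45A and SESN1 in LacZ cells. Of all genes tested, 15.9% had non-overlapping times in GPI-PLD cells and 12.9% in LacZ cells. Over the 8 members the median log2 difference between 12 h and 6 h was -0.03 in GPI-PLD cells and 0.11 in LacZ cells, beside 0.013 in GPI-PLD cells and 0.005 in LacZ cells over all genes tested.

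CDKN1A, whose product p21 stops the cell cycle in G1, did not pass in either virus. Its signals were 1599.2, 1463.5, 1791.6 and 1350.6 in GPI-PLD 12 h arrays, against 1359.0, 1771.6, 2049.8 and 1421.2 in GPI-PLD 6 h arrays. LacZ cells gave 1696.4, 1598.2, 1674.9 and 1852.6 at 12 h, against 1103.9, 1647.4, 1111.0 and 1299.9 at 6 h, where replicate 2 at 6 h overlapped the 12 h arrays. The log2 difference was -0.08 ± 0.14 in GPI-PLD cells (95% interval -0.37 to 0.22, limma adjusted p = 0.809), and 0.05 ± 0.17 without GPI-PLD 12 h replicates 2 and 4. In LacZ cells it was 0.40 ± 0.14 (95% interval 0.11 to 0.69, adjusted p = 0.093). Without LacZ 6 h replicate 2 the LacZ difference was 0.52 ± 0.14 and passed (adjusted p = 0.0284), which it did in no other of the 28 alternatives. The difference between the 2 time differences was -0.48 ± 0.20, with an unadjusted p of 0.0257 and an adjusted p of 0.57.

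The negative feedback members MDM2, the ubiquitin ligase that marks p53 for breakdown, and PPM1D, the phosphatase Wip1 that dephosphorylates p53 and its activating kinases, overlapped between times in both viruses. MDM2 ran from 288.9 to 820.0 in GPI-PLD 12 h arrays, 406.7 to 579.5 in GPI-PLD 6 h arrays, 478.1 to 739.7 in LacZ 12 h arrays and 458.2 to 608.2 in LacZ 6 h arrays. Its log2 differences were 0.12 ± 0.24 in GPI-PLD cells (95% interval -0.37 to 0.62) and 0.11 ± 0.24 in LacZ cells. Leaving out GPI-PLD 12 h replicates 2 and 4 put the GPI-PLD difference of MDM2 at -0.02 ± 0.28. The 5 MDM2 probe sets did not share a direction, with differences of -0.43 to 0.66 in GPI-PLD cells and -0.75 to 0.27 in LacZ cells. Only 3 of the 5 had a mean signal at or above the level set for testing. The values 0.66, -0.75 and 0.27 came from sets below it.

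PPM1D, read by 1 probe set, ran from 1056.5 to 1274.0 in GPI-PLD 12 h arrays and 1101.5 to 1347.8 in GPI-PLD 6 h arrays. LacZ cells ran from 979.6 to 1387.6 at 12 h and 1141.7 to 1351.6 at 6 h. The PPM1D log2 differences were -0.10 ± 0.13 in GPI-PLD cells (95% interval -0.37 to 0.17) and -0.18 ± 0.13 in LacZ cells (limma adjusted p = 0.708 and 0.487).

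SESN1, a stress-induced inhibitor of mTORC1 and a p53 target, had signals of 1166.1, 1390.0, 1702.1 and 1337.1 in GPI-PLD 12 h arrays, against 1414.8, 1527.3, 1498.9 and 1757.1 in GPI-PLD 6 h arrays. LacZ cells had 1357.6, 1350.7, 1342.5 and 1286.6 at 12 h, against 1516.9, 1367.9, 1550.4 and 1884.5 at 6 h. The LacZ times did not overlap, with the nearest arrays at 1357.6 and 1367.9. The log2 difference was -0.15 ± 0.12 in GPI-PLD cells (limma adjusted p = 0.507) and -0.23 ± 0.12 in LacZ cells (95% interval -0.48 to 0.03, adjusted p = 0.321).

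BAX, which permeabilises the outer mitochondrial membrane, varied widely among the arrays of a group. BAX gave 115.3, 337.1, 429.5 and 495.4 in GPI-PLD 12 h arrays, against 413.1, 438.8, 484.3 and 532.6 in GPI-PLD 6 h arrays. In LacZ cells it gave 203.5, 557.4, 222.3 and 473.4 at 12 h, against 606.4, 148.3, 314.1 and 275.3 at 6 h. The log2 difference was -0.50 ± 0.37 in GPI-PLD cells (95% interval -1.26 to 0.26, limma adjusted p = 0.451) and 0.12 ± 0.37 in LacZ cells. Without GPI-PLD 12 h replicates 2 and 4 the GPI-PLD difference of BAX was -0.83 ± 0.45 (adjusted p = 0.291). The other BAX probe set differed by -1.24 ± 0.49 in GPI-PLD cells (adjusted p = 0.195 over all probe sets) and by -0.01 ± 0.49 in LacZ cells.

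FAS, the death receptor for Fas ligand, ran from 921.8 to 1740.1 in GPI-PLD 12 h arrays and 1030.7 to 1555.3 in GPI-PLD 6 h arrays. In LacZ cells it ran from 908.1 to 1455.3 at 12 h and 1009.1 to 1547.9 at 6 h. Its log2 differences were 0.02 ± 0.19 in GPI-PLD cells (95% interval -0.37 to 0.41) and -0.09 ± 0.19 in LacZ cells. Leaving out GPI-PLD 12 h replicates 2 and 4 put the GPI-PLD difference of FAS at 0.32 ± 0.21 (limma adjusted p = 0.404). Over the 4 FAS probe sets the differences ran from -0.50 to 0.02 in GPI-PLD cells and from -0.47 to -0.07 in LacZ cells, and none passed.

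**Figure D2:**
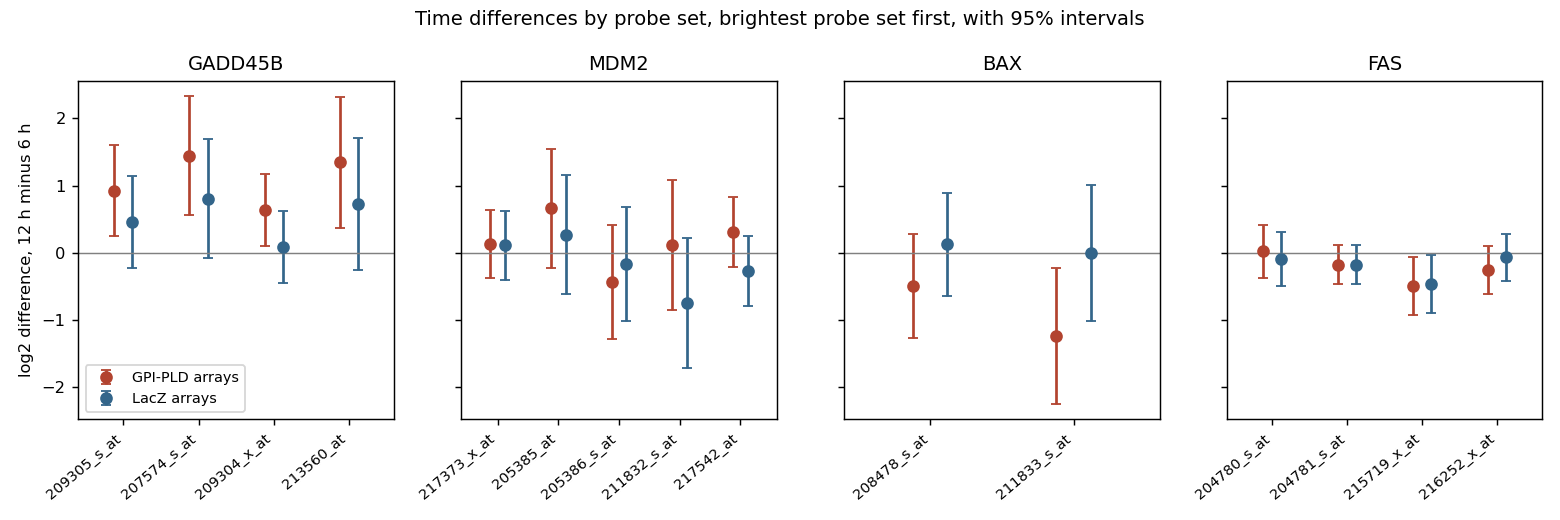
Log2 differences between 12 h and 6 h (vertical axis, log2 of signal + 63) for every probe set of the 4 genes with more than 1, with 95% intervals, in GPI-PLD and LacZ arrays. The 4 GADD45B probe sets lie above 0 in both viruses, and the 5 MDM2 probe sets lie on both sides of it. Only 1 of the 4 GADD45B sets and 3 of the 5 MDM2 sets had a mean signal at or above the level set for testing.

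Between the viruses no member passed at either time. At 12 h the 8 log2 differences, GPI-PLD minus LacZ, ran from -0.16 ± 0.36 for GADD45B to 0.11 ± 0.17 for GADD45A, and the arrays of the viruses overlapped in all 8. Without GPI-PLD 12 h replicates 2 and 4 the 12 h differences ran from -0.43 ± 0.45 for BAX to 0.35 ± 0.21 for FAS, and 0 of 8 passed. At 6 h they ran from -0.63 ± 0.36 for GADD45B to 0.53 ± 0.37 for BAX, again with overlap in all 8. Of all genes tested, 3.96% did not overlap between the viruses at 12 h and 3.07% at 6 h. Limma called 0 of 8 members at each time, beside 0.0% of all genes tested at 12 h and 0.0% at 6 h. At an unadjusted p under 0.05 stood 0 members at 12 h and 1 at 6 h, beside 7.2% and 4.62% of all genes. With the variance estimated without trend and robust the count of members was also 0 at each time.

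The 1 member at 6 h was CDKN1A, which averaged 1650 ± 322 in GPI-PLD cells and 1291 ± 255 in LacZ cells (SD, n = 4 each). The log2 difference was 0.34 ± 0.14 (95% interval 0.05 to 0.63, limma unadjusted p = 0.0247, adjusted p = 0.998). At 12 h CDKN1A averaged 1551 ± 190 in GPI-PLD cells and 1706 ± 107 in LacZ cells, a log2 difference of -0.14 ± 0.14 (adjusted p = 0.857). GADD45A averaged 5033 ± 984 in GPI-PLD cells and 4613 ± 429 in LacZ cells at 12 h, a log2 difference of 0.11 ± 0.17 with a 95% interval that reached from -0.25 to 0.47. GADD45B at 6 h averaged 107.9 ± 35.9 in GPI-PLD cells and 210.2 ± 95.6 in LacZ cells, and the arrays overlapped. Over all genes the median 95% interval reached 0.35 to either side on the log2 scale for a log2 difference, a factor of 1.28. The virus effect at 12 h minus that at 6 h passed for 0 members, and 0.0123% of all genes tested passed it. At an unadjusted p under 0.05 stood 1 member, CDKN1A, beside 7.58% of all genes. Averaged over the times the virus effect passed for 0 members, with 0 at an unadjusted p under 0.05, beside 0.0% and 4.18% of all genes, and GADD45A was at 0.00 ± 0.12.

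Over the 19 probe sets of the members the log2 difference between the viruses was positive for 10 and negative for 9 at 12 h, and positive for 3 and negative for 16 at 6 h. None passed when adjusted over all probe sets, and the probe sets of a gene were read from the same arrays. Over all genes tested, each read by 1 probe set, 51.5% were positive at 12 h and 50.6% at 6 h. At 6 h all 4 GADD45B sets were negative, from -0.67 to -0.09, and so were all 5 MDM2 sets, from -0.47 to -0.08. Only 1 of those GADD45B sets and 3 of those MDM2 sets had a mean signal at or above the level set for testing. At 12 h the GADD45B sets ran from -0.16 to 0.52 and the MDM2 sets from -0.39 to 0.46. The 2 BAX sets differed at 12 h, at -0.09 for the brightest and -1.28 for the other.

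**Figure D3:**
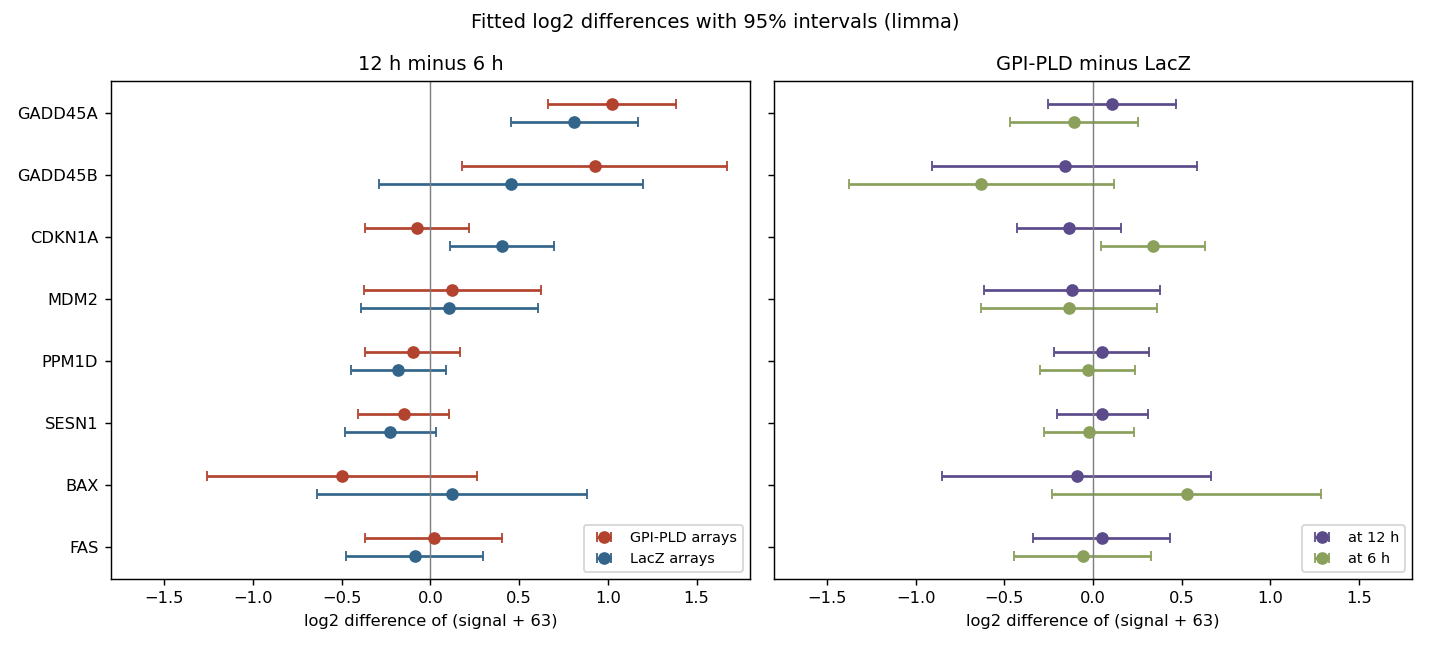
Fitted log2 differences of (signal + 63) for 8 genes with 95% intervals, 12 h minus 6 h on the left and GPI-PLD minus LacZ on the right. In the time comparison GADD45A lies at 1.03 in GPI-PLD cells and 0.81 in LacZ cells with both intervals above 0, and at 6 h the interval of CDKN1A between the viruses reaches from 0.05 to 0.63.

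The members were set among 64 genes of the p53 target lists and the members, of which 48 had a probe set and 44 were tested. In GPI-PLD cells 6 of the 44 rose with time and 4 fell, or 22.7%, beside 9.64% called over all genes. In LacZ cells 5 rose and 3 fell, or 18.2%, beside 6.89% over all genes. The members and lists were chosen with earlier results of these data known, so these shares are no independent comparison with all genes. Median log2 differences over the 44 were 0.02 in GPI-PLD cells and 0.05 in LacZ cells, beside 0.013 in GPI-PLD cells and 0.005 in LacZ cells over all genes. The same direction passed in both viruses for 7 genes, which is 70.0% of the GPI-PLD calls and 87.5% of the LacZ calls. The matching overlap over all genes tested is not given here, so these shares are not shown to be particular to p53 targets. Without GPI-PLD 12 h replicates 2 and 4, 4 rose and 3 fell in GPI-PLD cells, all 7 among the 10 called with every array. Then PRKAB2 was at 0.56 ± 0.18 (adjusted p = 0.0672), PLK3 at 0.82 ± 0.32 (adjusted p = 0.14) and DDB2 at -0.56 ± 0.21 (adjusted p = 0.126) and missed the threshold. Between the viruses 0 of the 44 passed in limma, with 4 at an unadjusted p under 0.05 at 12 h and 5 at 6 h, beside 7.2% and 4.62% of all genes, and 0 in the fit without trend and robust.

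For each list below, the shares called over all genes are 4.59% upward and 5.06% downward in GPI-PLD cells, and 3.64% upward and 3.26% downward in LacZ cells. In the cell cycle arrest list GADD45A was the 1 of 8 tested that passed, in both viruses. In the apoptosis list 2 of 14 rose in each virus, and they were the same genes. PMAIP1, which encodes the BH3-only protein NOXA, averaged 581 at 12 h and 108.3 at 6 h in GPI-PLD cells, a log2 difference of 1.99 ± 0.28 (limma adjusted p = 3.76e-05). In LacZ cells PMAIP1 averaged 603.8 at 12 h and 208.8 at 6 h, a log2 difference of 1.32 ± 0.28 (adjusted p = 0.00435). The GPI-PLD 6 h mean lay below the testing level of 208.5 and the LacZ 6 h mean beside it. PMAIP1 therefore reached that level mainly through its 12 h arrays. Its other probe set, with a mean signal of 180.8, was at 0.716 ± 0.445 in GPI-PLD cells and 0.924 ± 0.445 in LacZ cells. TNFRSF10B, the TRAIL receptor DR5, rose by 0.66 ± 0.08 in GPI-PLD cells and 0.79 ± 0.08 in LacZ cells. TRIAP1, a small mitochondrial protein that restrains apoptosis, had a log2 difference of -0.44 ± 0.09 in GPI-PLD cells and -0.59 ± 0.09 in LacZ cells and passed in both. RPS27L passed in GPI-PLD cells at -0.37 ± 0.07, and EI24 in LacZ cells at -0.47 ± 0.13, in 21 of 28 alternatives, where its other probe set was at -0.08 ± 0.15. In the other virus RPS27L was at -0.17 ± 0.07 in LacZ cells and EI24 at -0.07 ± 0.13 in GPI-PLD cells.

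Among metabolic and mTOR targets 2 of 12 rose in each virus. GDF15, a stress-induced secreted cytokine, averaged 36830 at 12 h and 11620 at 6 h in GPI-PLD cells, a log2 difference of 1.67 ± 0.10 (limma adjusted p = 3.16e-11). In LacZ cells GDF15 averaged 33320 at 12 h and 10730 at 6 h, a log2 difference of 1.64 ± 0.10. PRKAB2, a regulatory subunit of the energy sensor AMPK, rose by 0.72 ± 0.15 in GPI-PLD cells and 0.76 ± 0.15 in LacZ cells. Among repair targets 2 of 4 fell in GPI-PLD cells and 1 of 4 in LacZ cells. PCNA, the sliding clamp of DNA replication that GADD45A binds, had a log2 difference of -0.78 ± 0.11 in GPI-PLD cells and -0.67 ± 0.11 in LacZ cells. DDB2, which recognises UV damage, passed in GPI-PLD cells at -0.57 ± 0.17, in 18 of 28 alternatives. In LacZ cells DDB2 was at -0.40 ± 0.17 without passing. Among feedback targets 1 of 5 rose in GPI-PLD cells and 0 in LacZ cells. It was PLK3, a stress kinase, at 1.03 ± 0.26 in GPI-PLD cells (adjusted p = 0.0116) and 0.76 ± 0.26 in LacZ cells (adjusted p = 0.0814), and another PLK3 probe set had the opposite sign at -0.35 ± 0.51 in GPI-PLD cells.

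**Figure D4:**
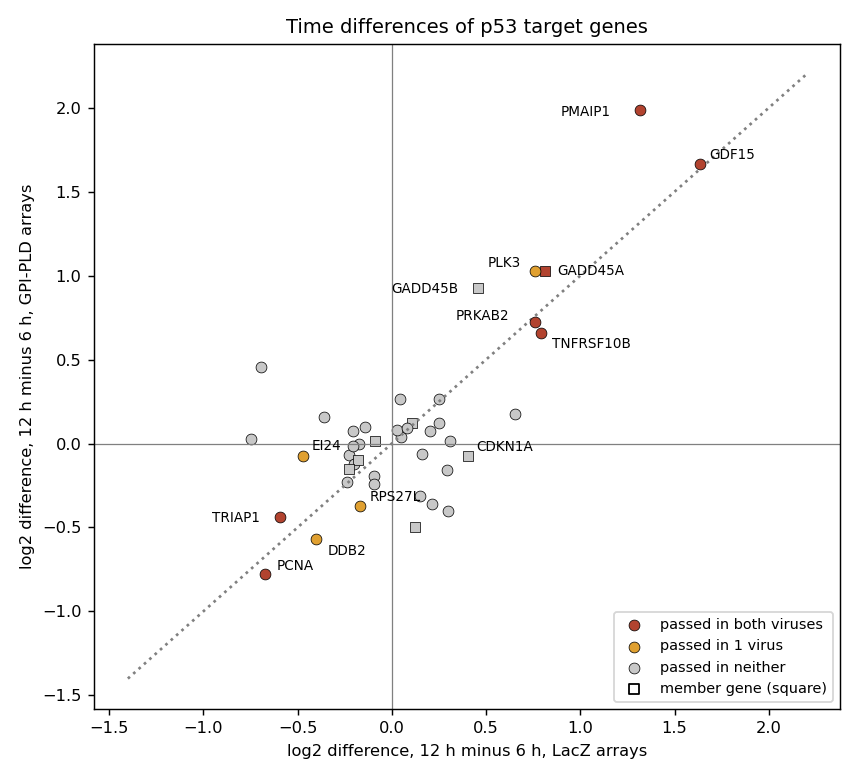
Log2 differences between 12 h and 6 h of 44 tested genes of the p53 target lists and the members, GPI-PLD arrays on the vertical axis and LacZ arrays on the horizontal axis, with a dotted line where both are equal. Colours give the viruses in which a gene passed, and squares are members. GADD45A stands with 4 other genes that rose in both viruses, and 31 of 44 genes have the same sign in both. The share with the same sign over all genes tested is not given here.

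Around p53 itself, TRIM24, a ubiquitin ligase that acts on p53, was the 1 of 19 tested regulators that passed, at 0.28 ± 0.08 in GPI-PLD cells, in 14 of 28 alternatives (0.24 ± 0.10, adjusted p = 0.183, without GPI-PLD 12 h replicates 2 and 4), and 0.44 ± 0.08 in LacZ cells. In the GADD45 family and its partners 1 of 4 tested rose in each virus, GADD45A itself. The kinase MAP3K4, which GADD45 proteins activate, was at -0.07 ± 0.17 in GPI-PLD cells and -0.32 ± 0.17 in LacZ cells and did not pass.

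Of the antiproliferative BTG and TOB family with its partners 2 of 7 tested rose and 1 fell in GPI-PLD cells, and 1 rose in LacZ cells. BTG1 had a log2 difference of 0.96 ± 0.12 in GPI-PLD cells and 0.99 ± 0.12 in LacZ cells. TOB1 fell in GPI-PLD cells, at -0.50 ± 0.11, and was at -0.31 in LacZ cells without passing. BTG3 passed in GPI-PLD cells at 0.44 ± 0.14, in 9 of 28 alternatives, and 1 of its 2 other probe sets was at -0.23 ± 0.23. It missed the threshold without GPI-PLD 12 h replicates 2 and 4 (adjusted p = 0.0844). In LacZ cells BTG3 was at 0.43 ± 0.14, close to the GPI-PLD value, without passing (limma adjusted p = 0.0676).

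Of 6 tested inhibitors of cyclin-dependent kinases, CDKN1A among them, 1 passed in each virus. This was CDKN3, a phosphatase that acts on CDK2, at -0.54 ± 0.12 in GPI-PLD cells and -0.65 ± 0.12 in LacZ cells. In a list of G1 cyclins, their kinases, RB family genes and other cell cycle genes, 3 of 16 tested fell in GPI-PLD cells and 2 in LacZ cells. The replication clamp PCNA was among both, and it is also counted with the repair targets above. Cyclin E1 (CCNE1) was at -0.64 ± 0.17 and cyclin D1 (CCND1) at -0.58 ± 0.18 in GPI-PLD cells, the second in 16 of 28 alternatives. In LacZ cells CCNE1 was at -0.29 ± 0.17 and CCND1 at -0.05 ± 0.18, and neither passed. Cyclin D3 (CCND3) was at -0.73 ± 0.18 in LacZ cells. Without GPI-PLD 12 h replicates 2 and 4 the GPI-PLD differences were -0.72 ± 0.12 for CDKN3, -0.72 ± 0.20 for CCNE1 and -0.86 ± 0.20 for CCND1. These 3 genes passed there as well.

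Of 12 tested BCL2 family genes, BAX among them, 2 rose in GPI-PLD cells and 3 in LacZ cells. The antiapoptotic MCL1 rose by 0.61 ± 0.10 in GPI-PLD cells and 0.68 ± 0.10 in LacZ cells, and PMAIP1 is the other gene in common. BCL2L1, which encodes BCL-XL, rose by 0.68 ± 0.15 in LacZ cells and was at -0.14 in GPI-PLD cells, where its adjusted p was 0.633. The difference of BCL2L1 between those time effects, GPI-PLD minus LacZ, was -0.82 ± 0.22, with a limma unadjusted p of 0.000988 and an adjusted p of 0.381, and it passed in 1 of 27 alternatives. Of 12 tested death receptor pathway genes, FAS among them, 2 rose in each virus, TNFRSF10B and TNFRSF1A. TNFRSF1A, the main TNF receptor, was at 0.41 ± 0.12 in GPI-PLD cells, in 18 of 28 alternatives, and 0.78 ± 0.12 in LacZ cells. The GPI-PLD difference of TNFRSF1A was 0.36 ± 0.15 without replicates 2 and 4 of GPI-PLD 12 h (adjusted p = 0.171).

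Among 11 tested genes of mTORC1 control, SESN1 and partners of the sestrins, 2 rose in each virus. DDIT4, which represses mTORC1 under stress, averaged 9709 at 12 h and 3024 at 6 h in GPI-PLD cells and 9410 at 12 h and 2285 at 6 h in LacZ cells. Its log2 differences were 1.72 ± 0.17 in GPI-PLD cells and 2.03 ± 0.17 in LacZ cells. WDR59 passed in GPI-PLD cells at 0.34 ± 0.11, in 9 of 28 alternatives, and both its other probe sets were negative, at -0.04 ± 0.31 and -0.13 ± 0.44. WDR59 missed the threshold without GPI-PLD 12 h replicates 2 and 4 (adjusted p = 0.211). In LacZ cells it was at 0.19 ± 0.11 without passing. MIOS passed in LacZ cells at 0.47 ± 0.13, in 18 of 28 alternatives, and 1 of its other probe sets was at -0.29 ± 0.36.

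The difference between the time effects of the 2 viruses was tested as well. It passed in limma for 0 of the 44 targets and members, with 5 at an unadjusted p under 0.05, and for 0 genes of the other lists, with at most 2 per list at an unadjusted p under 0.05. A gene that passed in 1 virus and missed the threshold in the other is therefore not shown to differ between them.

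Between the viruses the smallest p-values among these lists were those of DRAM1, a lysosomal p53 target, at 12 h, and of PPP1R13L, an inhibitor of p53, at 6 h. DRAM1 averaged 1359 ± 211 in GPI-PLD cells and 910 ± 120 in LacZ cells at 12 h, a log2 difference of 0.54 ± 0.14 (limma adjusted p = 0.38). PPP1R13L averaged 264.5 ± 141 in GPI-PLD cells and 552.4 ± 56.5 in LacZ cells at 6 h, a log2 difference of -1.02 ± 0.29 (adjusted p = 0.836). PMAIP1 was at -0.72 ± 0.28 at 6 h (adjusted p = 0.99). Neither DRAM1 nor PPP1R13L overlapped between the viruses at that time, and both missed the threshold under each alternative run.

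Across the 16 arrays the 28 pairs of members had Pearson correlations of -0.69 to 0.65 with a median of -0.13, and 8 of the 28 were positive. The highest was that of GADD45A with GADD45B and the next that of SESN1 with PPM1D (r = 0.58), and the lowest that of BAX with FAS. The genes whose signals were most like those of GADD45A over the 16 arrays were TRMT11 (r = 0.93), IFRD1 (r = 0.92) and ID2 (r = 0.92). These arrays share the 2 times, which enter each r. TRMT11, part of a tRNA methyltransferase, had a log2 time difference of 0.81 ± 0.15 in GPI-PLD cells and 0.72 ± 0.15 in LacZ cells. IFRD1, a transcriptional coregulator, had 1.23 ± 0.13 in GPI-PLD cells and 1.09 ± 0.13 in LacZ cells. ID2, an inhibitor of helix-loop-helix transcription factors, had 0.65 ± 0.09 in GPI-PLD cells and 0.54 ± 0.09 in LacZ cells.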

How the data were processed

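The authors deposited 16 Affymetrix arrays as MAS5 signals, an intensity on a linear scale, per the submitters' processing notes. The deposited signals had a trimmed mean (2% cut at each end) of 1000.3 to 1000.4 in every array, so no rescaling was applied (array medians differed 1.24-fold, with 1.5 as the limit). Other steps, such as scanning, are not given in the sources used here. The labels number no replicates, so accession order did.

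Signals were analysed as log2(signal + 63), 63 being the 20th percentile of all signals. Such fold changes understate the change of dim genes. Of 22283 probe sets 68 were controls, 19065 had 1 gene symbol, 1043 several and 2107 none. Each gene was read by its brightest probe set with 1 symbol and tested if its mean reached the 40th percentile (208.5), which left 8109 genes. Limma 3.58.1 (statmod 1.5.0, R 4.3.3) fitted the 4 group means over all 16 arrays, with eBayes using trend and robust (12 residual degrees of freedom, prior median 10.6). Calls were made at a Benjamini-Hochberg adjusted p under 0.05 over all tested genes of a comparison. Other probe sets of the members were fitted with all 22215 outside the controls. The steps were tested on simulated data. Tables were read with Python 3.11.15 and pandas 2.3.3.

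The members and lists were chosen with earlier results of these data known. Named were all members, up to 4 genes per list with the smallest p among those that passed with time, and some of the 2 per list with the smallest p between the viruses. For each member called, the 3 tested genes with the highest Pearson r over the arrays were named too. The number of arrays limits the precision. Alternatives were quantile or 75th percentile scaling, no pseudocount or 4 times it, no filter or the 60th percentile, averaging the probe sets of a gene, fitting every probe set, plain eBayes (no trend, not robust), weighting the arrays, fitting only the groups compared, leaving out each array, and GPI-PLD 12 h replicates 2 and 4 left out together.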

Additional observations from a re-analysis of the deposited data

Results flagged for a closer look

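In 4 of 76 groups of 4 arrays, over 19 probe sets and 4 groups, 1 array stood far from the other 3 by Dixon's criterion, which marks about 1 in 20 groups by chance (3.8 of 76). PPM1D read 1387.6 in LacZ 12 h replicate 4, against 979.6 to 1021.2 in the other 3 arrays. FAS read 1555.3 in GPI-PLD 6 h replicate 1, against 1030.7 to 1074.6 in the others. One of the dimmer MDM2 probe sets read 37.2 in LacZ 6 h replicate 3, against 162.2 to 191.1 in the others. The GADD45B probe set with the lowest adjusted p read 149.5 in GPI-PLD 6 h replicate 4, against 29.7 to 31.8 in the others, so its difference with time includes 1 bright array at 6 h. None of the 4 belongs to a probe set that passed in a comparison.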

How the results depend on the processing

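GADD45A passed with time in both viruses under each of 28 alternatives run. The count of members called with time in GPI-PLD cells was 2 in place of 1 with each gene's probe sets averaged and with eBayes without trend and robust, and the added gene was GADD45B. In LacZ cells that count was 1 to 2 with single arrays left out, the 2 being without LacZ 6 h replicate 2. No member was called between the viruses under any alternative. Of 1316 values of single members under the alternatives, 1309 moved by less than the spread between arrays and kept their call, 4 moved by more and 3 became called. No called value changed sign, and 86 values that were not called did. Over all genes the count with time was 782 in GPI-PLD cells (548 to 831 with single arrays left out) and 559 in LacZ cells (390 to 635). Among p53 targets and members it was 8 to 10 in GPI-PLD cells and 7 to 8 in LacZ cells with single arrays left out. Between the viruses at 12 h it was 0 over all genes, 0 to 2 with single arrays left out and 3 without GPI-PLD 12 h replicates 2 and 4. At 6 h it was 0, and 2 with eBayes without trend and robust. The virus effect at 12 h minus that at 6 h passed for 1 gene, for 0 to 3 genes with single arrays left out, for 0 with quantile normalization, 75th percentile scaling, no filter, the mean of probe sets, all probe sets or eBayes without trend and robust, and for 2 with 4 times the pseudocount, the 60th percentile filter or without GPI-PLD 12 h replicates 2 and 4. The cause of these changes was not tested. No paired analysis was possible because the labels give the groups no replicate numbers. Read by their brightest probe sets, GADD45B and BAX have the lowest mean signals and the widest intervals among the members.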
